A study of Mus musculus with 11 samples.

Results

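The constitutive proteasome genes were followed in the RNA of mouse alveolar macrophages after a course of CpG injections. The members were the transcript clusters whose gene symbol is Psma, Psmb, Psmc, Psmd, Psme, Psmf or Psmg followed by a number and nothing else, without Psmb8, Psmb9, Psmb10, Psme1 and Psme2, which belong to the immunoproteasome and its activator. This gave 42 genes of the 19505 with a symbol on the array, each with 1 cluster, and 40 of them were bright enough to be tested among 12144 genes. No cluster carried the symbol Psmb5, so the chymotrypsin-like subunit of the constitutive core was not analysed here.

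The mice were C57BL/6J females, purchased when 6 weeks old and injected 5 times within 10 days, and their alveolar macrophages were taken by bronchoalveolar lavage and separated from the other lavage cells by adherence. Resolution mice (n = 4) had CpG 1826, a ligand of the DNA sensor Tlr9, and lavage at day 30. Acute mice (n = 3) had the same CpG with lavage at day 10, and control mice (n = 4) had PBS instead with lavage at day 10. Repeated CpG models macrophage activation syndrome, a hyperinflammatory state. No PBS mice of day 30 are among the samples, so in resolution against control the CpG course and the later day cannot be told apart. Each sample was hybridised to an array of its own.

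The proteasome is the protease that degrades proteins tagged with ubiquitin. Its barrel-shaped core particle is made of alpha subunits, which gate the entrance, and beta subunits, of which Psmb5, Psmb6 and Psmb7 cut peptide bonds. The regulatory particle that caps the core binds ubiquitin, removes it, and unfolds the substrate with a ring of ATPases. In macrophages exposed to interferon-gamma the immunoproteasome subunits Psmb8, Psmb9 and Psmb10 replace the constitutive catalytic subunits in newly built particles, and the peptides made then serve MHC class I presentation.

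All values are log2(intensity + 1), and a level is read against the other arrays of the same gene only. The median intensity of an array was 51.4 to 57.0, and the 90th percentile of its antigenomic probe sets, taken as background, was 6.12 to 6.24 in log2 units. All 12 measured markers of alveolar macrophages lay above background on all 11 arrays, with summed intensities of 672000 to 704000 in resolution, 667000 to 702000 in acute and 694000 to 736000 in control arrays. The 40 tested members lay above background on all 11 arrays, so none passed the filter through 1 group alone. Psma8, a testis subunit, and Psmb11, the thymus subunit, lay below background on all 11 arrays and were not tested. Summed intensities of 13 measured epithelial markers were 12900 to 14900 in resolution, 25800 to 44900 in acute and 12100 to 21800 in control arrays, with Sftpb and Krt18 below background on every array. Of the 11 epithelial markers tested, 4 fell and 0 rose in resolution against control, 7 fell and 0 rose in resolution against acute, and 4 rose and 0 fell in acute against control. The summed intensities of 8 measured monocyte and interstitial macrophage markers were 651 to 1230 in resolution, 824 to 1370 in acute and 369 to 473 in control arrays, with Ly6c2, Cx3cr1, Folr2 and Lyve1 below background on every array. Of the alveolar macrophage markers 3 rose and 1 fell, and of 5 tested monocyte and interstitial markers 2 rose and 0 fell, in resolution against control. The 11 measured T and NK cell markers, 8 of them below background on every array, summed to 309 to 334 in resolution, 496 to 717 in acute and 321 to 428 in control arrays. Summed neutrophil markers were 4390 to 7920 in resolution, 4430 to 5550 in acute and 3290 to 10400 in control arrays. The single red cell marker measured was 45.5 to 151 in resolution, 126 to 36300 in acute and 51.7 to 103 in control arrays. The part of these markers in the proteasome results was not tested.

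On day 30 the macrophages held less RNA of many constitutive proteasome genes than at the end of the PBS or the CpG course. Against control, 17 of the 40 tested members fell (42.5%) and 0 rose, where 9.0% of all 12144 genes tested fell and 9.60% rose. The falls were modest, between 1.33-fold and 1.78-fold. Against acute, 15 members fell (37.5%) and 0 rose, where 6.69% of all genes fell and 7.77% rose. The 2 day-30 comparisons share the resolution arrays, and 13 members fell in both. In acute against control 0 of the 40 members passed in either direction, also at an unadjusted p under 0.05, where limma called 0.189% of all genes higher and 0.0494% lower after adjustment, and 4.26% higher and 4.79% lower without it. Fewer cells of a type and less RNA per cell cannot be told apart in these bulk samples.

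**Figure D1:**
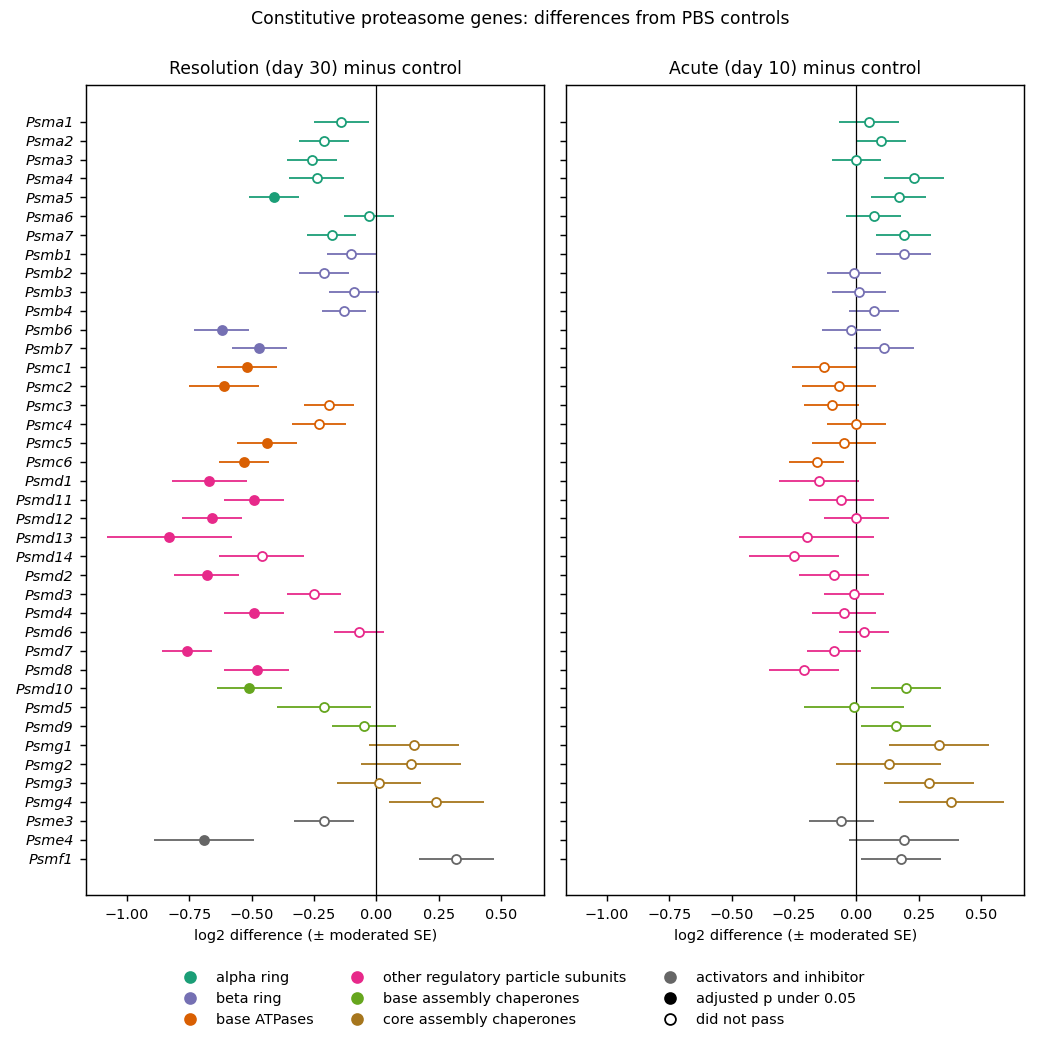
Log2 differences from the control group for the 40 tested members, with moderated SE (bars) and colours for the place of the gene in the complex. Left, resolution against control, with 17 filled symbols for members past an adjusted p of 0.05, all below 0; right, acute against control, where every symbol is open.

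The median difference over the 40 tested members was -0.24 in resolution against control and -0.29 in resolution against acute, while the median over all genes tested was 0.00 in each. Differences ran from -0.83 to 0.32 against control, and 35 of the 40 were negative, where 49.5% of all genes were negative and 50.5% positive. Against acute 38 of the 40 were negative, where 50.2% of all genes were negative and 49.8% positive. In acute against control the members ran from -0.25 to 0.38 with a median of 0.00, and 21 were positive and 19 negative, where 49.9% and 50.1% of all genes were. The arrays of resolution and control did not overlap for 20 members, all lower in resolution, where 11.2% of all genes lay lower without overlap. Among the 8324 genes above a stricter limit on brightness, which kept all 40 members, 13.7% fell against control and the 17 members still did.

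Each resolution array showed the shift. The median over members of the deviation from the control mean was -0.24, -0.27, -0.15 and -0.33 in resolution arrays 1 to 4. It was -0.03, 0.04 and 0.06 in the acute arrays and 0.00, 0.04, -0.05 and 0.00 in the control arrays. Between 34 and 38 members lay below their control mean in a resolution array, against 14 to 21 in an acute and 11 to 27 in a control array. Resolution replicate 4 was the lowest of its group and replicate 3 the closest to control, and all 4 medians lay below those of the other 7 arrays.

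**Figure D2:**
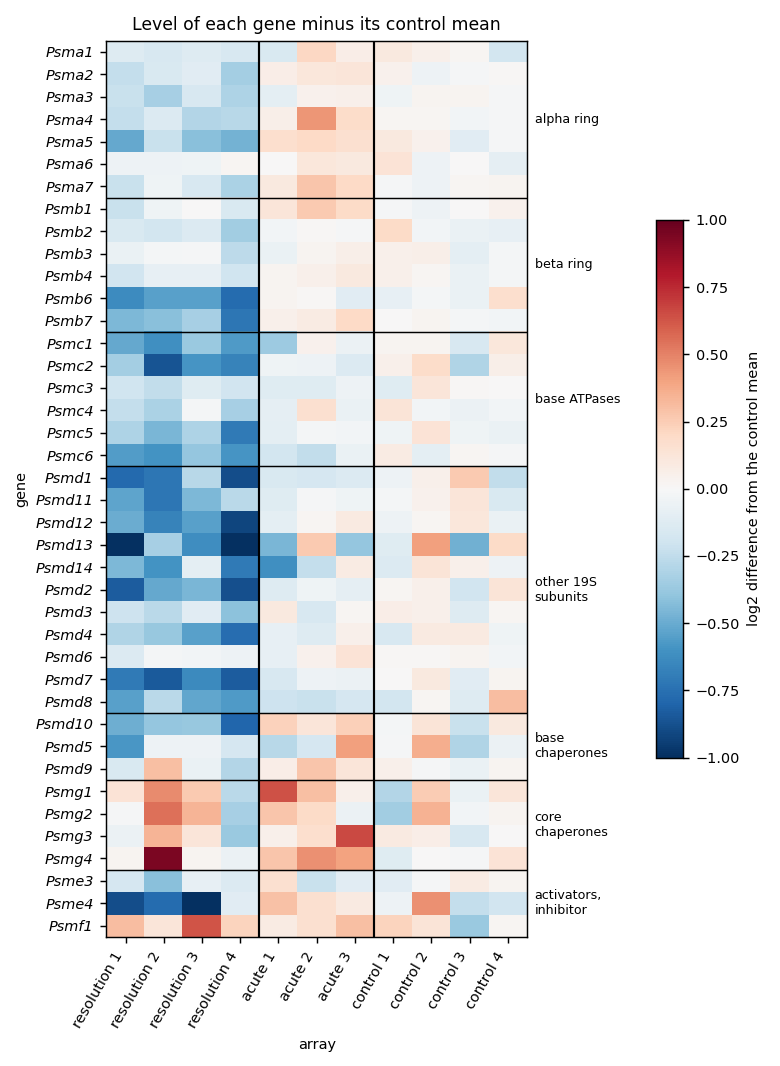
Deviation of each tested member (rows, ordered by place in the complex) from its own control mean on each array (columns), in log2 units from blue (lower) to red (higher). The 4 resolution arrays on the left are blue through most core and regulatory particle rows, most deeply in the regulatory particle; the 4 core chaperones lie above control in arrays 2 and 3, on both sides of it in array 1 and below it in array 4.

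Most of the calls lay in the regulatory particle. In it 12 of 17 members fell against control, with a median difference of -0.49, and all 17 differences were negative. In the rings of the core particle 3 of 13 fell, with a median of -0.21, and all 13 were negative. Of the 7 assembly chaperones 1 fell and 4 had a positive difference, with a median of 0.01. All genes stood at 9.0% lower, and whether these places differ from each other was not tested. Against acute the corresponding counts were 8 of 17, 5 of 13 and 1 of 7, with medians of -0.40, -0.29 and -0.20.

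Promoter sequences, from 250 bases before to 50 after a gene's start, were available from RefSeq (GRCm38.p6) for 34 of the 42 members. The upstream 250 bases are shown for the members with the smallest adjusted p in resolution against control that have a single listed promoter. Capitals mark TGACNNNGC, the core of the antioxidant response element to which Cnc factors with small Maf partners bind, read on either strand. All 4 run 5′ to 3′ along the plus strand, at chr11:70525107-70525356 for Psmb6, chr11:107479278-107479527 for Psmd12, chr14:45329574-45329823 for Psmc6 and chr16:20651402-20651651 for Psmd2.
Psmb6: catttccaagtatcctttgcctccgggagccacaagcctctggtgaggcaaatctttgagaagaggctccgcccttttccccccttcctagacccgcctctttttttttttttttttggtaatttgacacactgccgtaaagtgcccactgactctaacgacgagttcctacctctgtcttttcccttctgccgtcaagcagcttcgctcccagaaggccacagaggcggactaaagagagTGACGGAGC
Psmd12: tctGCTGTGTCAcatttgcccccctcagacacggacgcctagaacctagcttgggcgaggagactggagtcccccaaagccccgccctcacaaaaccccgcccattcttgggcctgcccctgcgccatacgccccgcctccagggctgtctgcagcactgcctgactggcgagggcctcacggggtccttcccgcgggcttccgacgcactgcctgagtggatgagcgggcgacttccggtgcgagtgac
Psmc6: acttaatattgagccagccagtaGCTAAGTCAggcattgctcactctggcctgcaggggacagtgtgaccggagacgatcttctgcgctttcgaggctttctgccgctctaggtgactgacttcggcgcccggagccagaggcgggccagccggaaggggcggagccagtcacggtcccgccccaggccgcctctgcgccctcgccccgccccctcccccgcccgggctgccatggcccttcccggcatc
Psmd2: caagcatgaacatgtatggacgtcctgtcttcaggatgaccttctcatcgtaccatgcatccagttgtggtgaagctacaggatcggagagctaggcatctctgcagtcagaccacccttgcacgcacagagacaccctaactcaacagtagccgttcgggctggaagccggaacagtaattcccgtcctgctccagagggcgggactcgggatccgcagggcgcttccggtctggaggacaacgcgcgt

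The core letters stood on the sense strand directly at the start of Psmb6, from base 9 to base 1 before it. They stood on the opposite strand from base 247 to 239 before the start of Psmd12 and from base 227 to 219 before that of Psmc6, and were not in the Psmd2 window. Over the full 300 bases, 4 of the 16 promoters of members that fell held the motif (25.0%), namely those of Psmb6, Psmd12, Psmc6 and Psme4. Of the 20 promoters of the other members 1 held it (5.00%), that of Psmd9, and 12.4% of all 32851 RefSeq promoters in the set did. The NF-Y box CCAAT, read on both strands, stood in 4 of the 16 promoters of members that fell (25.0%), in 9 of the other 20 (45.0%) and in 37.4% of all promoters. A match in these letters is a description and not a site.

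Among the subunits of the lid of the regulatory particle Psmd7, the partner of the deubiquitinase Psmd14, had the smallest adjusted p. Psmd7 measured 13.90, 13.77, 13.97 and 13.78 in the resolution arrays, 14.45, 14.56 and 14.55 in the acute arrays and 14.61, 14.71, 14.50 and 14.64 in the control arrays. All resolution arrays lay below every other array, and the acute and control arrays overlapped. Psmd7 fell 1.69-fold against control, a log2 difference of -0.76 ± 0.10 (SE, adjusted p = 0.000242), and 1.59-fold against acute (adjusted p = 0.00155). Psmd12, a structural lid subunit, measured 13.16, 12.99, 13.12 and 12.74 in the resolution arrays, 13.56, 13.68 and 13.75 in the acute arrays and 13.61, 13.68, 13.77 and 13.59 in the control arrays. It fell 1.58-fold against control, a log2 difference of -0.66 ± 0.12 (SE, adjusted p = 0.00182), and by the same fold against acute, with no overlap between resolution and either other group. Psmd11, a lid subunit that braces the lid against the core, measured 11.16, 10.97, 11.24 and 11.42 in the resolution arrays, 11.57, 11.68 and 11.65 in the acute arrays and 11.67, 11.73, 11.81 and 11.54 in the control arrays. The resolution arrays were again the lowest 4, and Psmd11 fell 1.41-fold against control (adjusted p = 0.011).

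Other lid genes varied more or less than these. Psmd13 had a difference of -0.83 ± 0.25 (SE) from control and adjusted p = 0.0333, with a spread of 0.43 (SD, n = 4) among resolution and 0.39 (SD, n = 4) among control arrays, which overlapped. Leaving out control replicates 1, 2 or 4, or resolution replicates 1 or 4, ended its call (adjusted p = 0.0534 to 0.0927). Psmd8 fell 1.39-fold (adjusted p = 0.0196), a call that ended without resolution replicates 3 or 4 (adjusted p = 0.0504 and 0.0506). Psmd14, the deubiquitinase that strips ubiquitin chains from substrates, had a difference of -0.46 ± 0.17 (SE) that did not pass (adjusted p = 0.0756). Psmd3 and Psmd6 had differences of -0.25 and -0.07, which did not pass either.

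In the base, Psmd2 and Psmd1 are the large scaffolds on which ubiquitin receptors and shuttles dock. Psmd2 measured 12.96, 13.28, 13.33 and 12.91 in the resolution arrays, 13.66, 13.75 and 13.70 in the acute arrays and 13.81, 13.84, 13.60 and 13.92 in the control arrays, so resolution lay below both other groups throughout. It fell 1.6-fold against control, a log2 difference of -0.68 ± 0.13 (SE, adjusted p = 0.00259), and 1.5-fold against acute. Psmd1 measured 12.10, 12.16, 12.60 and 11.99 in the resolution arrays, 12.73, 12.71 and 12.74 in the acute arrays and 12.83, 12.93, 13.14 and 12.63 in the control arrays. The acute arrays of Psmd1 lay close together and among the controls, while Psmd1 fell 1.59-fold in resolution against control, a log2 difference of -0.67 ± 0.15 (SE, adjusted p = 0.00745). Psmd4, a receptor for ubiquitin chains, measured 11.63, 11.55, 11.39 and 11.17 in the resolution arrays, 11.85, 11.80 and 11.98 in the acute arrays and 11.77, 12.02, 12.02 and 11.89 in the control arrays. Its arrays did not overlap between resolution and control, and Psmd4 fell 1.4-fold (adjusted p = 0.0146), but not without control replicates 3 and 4 together, an alternative chosen after seeing the data (adjusted p = 0.0906).

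The ATPases that thread substrates into the core fell in 4 of 6 cases against control, where 9.0% of all genes fell. Psmc2 measured 12.43, 11.91, 12.18 and 12.10 in the resolution arrays, 12.73, 12.72 and 12.63 in the acute arrays and 12.82, 12.95, 12.47 and 12.83 in the control arrays. Resolution lay below both other groups, which overlapped, although resolution replicate 1 came close to control replicate 3, and Psmc2 fell 1.53-fold (adjusted p = 0.00777). Psmc6 measured 12.31, 12.27, 12.48 and 12.28 in the resolution arrays, 12.69, 12.62 and 12.80 in the acute arrays and 12.95, 12.77, 12.89 and 12.86 in the control arrays, with resolution below both other groups, and fell 1.45-fold, a log2 difference of -0.53 ± 0.10 (SE, adjusted p = 0.00306). Psmc1 measured 12.96, 12.86, 13.10 and 12.90 in the resolution arrays, 13.11, 13.51 and 13.41 in the acute arrays and 13.50, 13.50, 13.31 and 13.58 in the control arrays. It fell 1.43-fold against control (adjusted p = 0.00922), and its acute replicate 1 stood close to the highest resolution array. Psmc5 measured 12.81, 12.66, 12.81 and 12.41 in the resolution arrays, 13.02, 13.10 and 13.09 in the acute arrays and 13.08, 13.26, 13.08 and 13.05 in the control arrays, with resolution below the overlapping acute and control arrays, and fell 1.36-fold (adjusted p = 0.0182), a call that ended without control replicate 2 (adjusted p = 0.0551). Psmc3 and Psmc4 had differences of -0.19 and -0.23 and did not pass.

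In the beta rings 2 of the 6 measured members fell against control, where 9.0% of all genes did. Both were catalytic subunits, and all 6 differences were negative. Psmb6, which cuts after acidic residues, measured 14.88, 14.97, 14.97 and 14.74 in the resolution arrays, 15.54, 15.52 and 15.40 in the acute arrays and 15.43, 15.49, 15.44 and 15.68 in the control arrays. Psmb6 fell 1.54-fold against control, a log2 difference of -0.62 ± 0.11 (SE, adjusted p = 0.00158), and 1.51-fold against acute. Psmb7, which cuts after basic residues, measured 12.97, 13.00, 13.09 and 12.70 in the resolution arrays, 13.47, 13.50 and 13.62 in the acute arrays and 13.42, 13.45, 13.40 and 13.39 in the control arrays. The control arrays lay close together, resolution lay wholly below them, and Psmb7 fell 1.39-fold (adjusted p = 0.00909). The non-catalytic beta subunits Psmb1, Psmb2, Psmb3 and Psmb4 had differences of -0.10, -0.21, -0.09 and -0.13 from control, none past the test. The resolution arrays of Psmb2 and Psmb4 lay below all control arrays, where 11.2% of all genes lay lower without overlap. Whether the catalytic subunits differ from the other beta subunits was not tested.

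**Figure D3:**
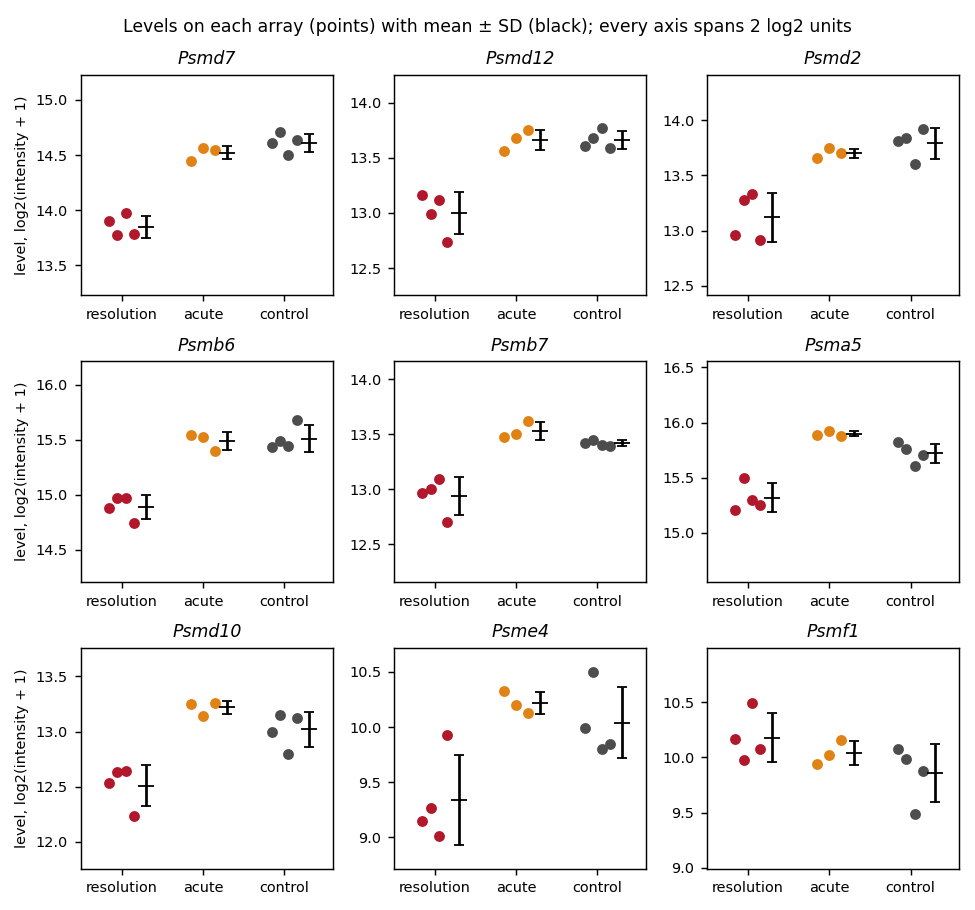
Levels of 9 members on every array (points, 4 resolution, 3 acute and 4 control) with the mean ± SD of each group beside them; every axis spans the same range of log2(intensity + 1). Resolution lies below both other groups for Psmd7, Psmd12, Psmd2, Psmb6, Psmb7, Psma5 and Psmd10, overlaps control for Psme4 and overlaps both groups for Psmf1.

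In the alpha rings 1 of 7 members fell against control, where 9.0% of all genes did, and 3 of 7 fell against acute, where 6.69% did. A single call among 7 is near the background share. Psma5 measured 15.21, 15.50, 15.30 and 15.25 in the resolution arrays, 15.89, 15.92 and 15.88 in the acute arrays and 15.82, 15.76, 15.61 and 15.71 in the control arrays. The acute arrays were the highest and the resolution arrays the lowest, with no overlap among the 3 groups. Psma5 fell 1.33-fold against control, a log2 difference of -0.41 ± 0.10 (SE, adjusted p = 0.0163), and 1.5-fold against acute (adjusted p = 0.00449). The call against control missed the threshold when control replicate 1 was left out (adjusted p = 0.0502). Psma4 measured 11.08, 11.18, 11.03 and 11.04 in the resolution arrays, 11.38, 11.76 and 11.50 in the acute arrays and 11.34, 11.34, 11.29 and 11.31 in the control arrays, again with acute highest and resolution lowest. Psma4 fell 1.38-fold against acute (adjusted p = 0.0185), a call that ended without acute replicate 2 (adjusted p = 0.0857), and its difference of -0.24 from control did not pass. Psma7, also a gate-ring subunit, fell 1.3-fold against acute (adjusted p = 0.0377), with a difference of -0.18 from control that did not pass. Psma6 and Psma1 had the smallest differences of the ring from control, -0.03 and -0.14.

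Assembly chaperones guide the building of new particles and leave before they are complete. Psmd10, which holds ATPases of the base during assembly, measured 12.53, 12.63, 12.64 and 12.23 in the resolution arrays, 13.25, 13.14 and 13.26 in the acute arrays and 13.00, 13.15, 12.80 and 13.12 in the control arrays. All resolution arrays lay below the rest, and Psmd10 fell 1.42-fold against control, a log2 difference of -0.51 ± 0.13 (SE, adjusted p = 0.0133), and 1.64-fold against acute (adjusted p = 0.00409). The other base chaperones Psmd5 and Psmd9 had differences of -0.21 and -0.05 from control. Psmg1, Psmg2, Psmg3 and Psmg4, which pair up to build the alpha ring, had differences of 0.15, 0.14, 0.01 and 0.24 from control and did not pass. Psmg4 in resolution replicate 2 stood at 11.58, against 10.58 to 10.67 in the other resolution arrays. Pomp, the chaperone of the beta ring, differed by -0.14 ± 0.10 (SE, adjusted p = 0.335).

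Of the 3 members that are activators or an inhibitor of the core 1 fell against control, where 9.0% of all genes did. Psme4, an activator that works without ATP and is known for its role in the male germline, measured 9.15, 9.27, 9.01 and 9.93 in the resolution arrays, 10.33, 10.20 and 10.13 in the acute arrays and 9.99, 10.50, 9.80 and 9.85 in the control arrays. Resolution replicate 4 sat among the controls and the other 3 below them. Psme4 fell 1.62-fold against control, a log2 difference of -0.69 ± 0.20 (SE, adjusted p = 0.0312), and 1.84-fold against acute (adjusted p = 0.018). Leaving out control replicates 1 or 2, or resolution replicates 1, 2 or 3, ended the call against control (adjusted p = 0.0578 to 0.0915). Leaving out acute replicates 1 or 2, or resolution replicate 3, ended the call against acute (adjusted p = 0.0514 to 0.0708). Psme3, the nuclear activator, measured 13.77, 13.52, 13.86 and 13.80 in the resolution arrays, 14.10, 13.72 and 13.83 in the acute arrays and 13.83, 13.93, 14.02 and 13.97 in the control arrays. It overlapped across groups, with a difference of -0.21 ± 0.12 (SE) from control that did not pass (adjusted p = 0.272). Psmf1, described as an inhibitor of the core in vitro, measured 10.17, 9.98, 10.49 and 10.08 in the resolution arrays, 9.94, 10.02 and 10.16 in the acute arrays and 10.08, 9.99, 9.49 and 9.88 in the control arrays. Its difference from control was the highest of the 40 members, 0.32 ± 0.15 (SE), and did not pass (adjusted p = 0.173).

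In resolution against acute, 7 of the 15 calls held without each of the 11 arrays in turn, those of Psmd7, Psmd12, Psmd2, Psmd10, Psmb6, Psmb7 and Psma5. Calls that 1 array could end were those of Psmd1, Psmd4, Psmd11, Psmc2, Psmc6, Psma4, Psma7 and Psme4. The count of members called was 7 without acute replicate 2 and 9 without acute replicates 1 or 3. The call of Psmd1 was kept only without control replicates 3 or 4 or resolution replicate 3, and that of Psmd11 only without control replicates 3 or 4 or resolution replicate 4, with adjusted p up to 0.128 and 0.106 otherwise. Psma7 kept its call only without control replicates 3 or 4 or resolution replicate 2, and Psmc6 only without control replicate 4 or resolution replicate 3, with adjusted p up to 0.124 and 0.141 otherwise. Psmd4 kept its call only without resolution replicates 1 or 2, with adjusted p up to 0.14 otherwise. The call of Psmc2 ended without each acute array and without resolution replicates 2, 3 or 4 (adjusted p = 0.0578 to 0.0935). The arrays of resolution lay below those of acute without overlap for 23 members, where 12.9% of all genes did.

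At the end of the CpG course the constitutive genes stood close to control. The arrays did not overlap for 8 members, all higher in acute, where 4.71% of all genes lay higher without overlap and 5.39% lower. They were Psma2, Psma4, Psma5, Psma7, Psmb1, Psmb7, Psmd9 and Psmg4, with differences of 0.10 to 0.38 that did not pass (smallest adjusted p = 0.599, for Psma4). In the rings 10 of 13 differences were positive, and in the regulatory particle 14 of 17 were negative, with medians of 0.07 and -0.09. After scaling each array to a common median 14 of the 40 members were negative, against 19 as deposited, so the signs of differences near 0 depended on the scaling.

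All 5 immunoproteasome genes had positive differences from control in both CpG groups, whereas Psmb6 and Psmb7 fell in resolution. In resolution against acute all 5 differences were negative and 3 genes fell, where 6.69% of all genes did. These were Psmb8 at -0.75, Psmb9 at -0.66 and Psme1 at -0.57 (adjusted p = 0.00474, 0.0222 and 0.00788), and the call of Psmb9 ended in 4 of 23 settings (adjusted p = 0.0509 to 0.0944), among them those without acute replicate 2, acute replicate 3 or resolution replicate 4. Psmb9 measured 13.04, 13.25, 13.07 and 12.77 in the resolution arrays, 13.31, 14.07 and 13.69 in the acute arrays and 12.27, 12.25, 12.19 and 12.39 in the control arrays. Within an array, the log2 level of Psmb9 minus that of Psmb6, whose place it takes, averaged -1.86 ± 0.11 (SD, n = 4) in resolution, -1.80 ± 0.40 (SD, n = 3) in acute and -3.24 ± 0.06 (SD, n = 4) in control arrays. The resolution and acute arrays overlapped and both lay above all controls. Of the 5 immunoproteasome genes 2 rose in each comparison with control, where 0.189% of all genes rose in acute and 9.60% in resolution. They were Psmb9 and, in acute, Psmb8 (adjusted p = 0.0107). The Psmb8 call ended when acute replicate 2, acute replicate 3, or control replicates 3 and 4 together were left out (adjusted p = 0.062 to 0.065). In resolution the other was Psmb10 (adjusted p = 0.0348), whose call ended in 9 of 23 settings (adjusted p = 0.0511 to 0.225). These were median scaling, quantile normalization, and leaving out resolution replicate 1, 2 or 3, control replicate 1, 3 or 4, or control replicates 3 and 4 together. In acute against control Psmb9 rose 2.67-fold (adjusted p = 0.00403) with the Psmb6 difference at -0.02, and in resolution against control Psmb9 rose 1.69-fold (adjusted p = 0.00526) while Psmb6 fell. For Psmb10 minus Psmb7 the averages were -2.41 ± 0.15 (SD, n = 4), -2.70 ± 0.23 (SD, n = 3) and -3.33 ± 0.11 (SD, n = 4) in resolution, acute and control arrays. These offsets contain the brightness of each probe set, so only their change between groups can be read. The differences of Psme1 and Psme2, which form the activator induced by interferon-gamma, were 0.09 and 0.12 in resolution against control and did not pass.

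**Figure D4:**
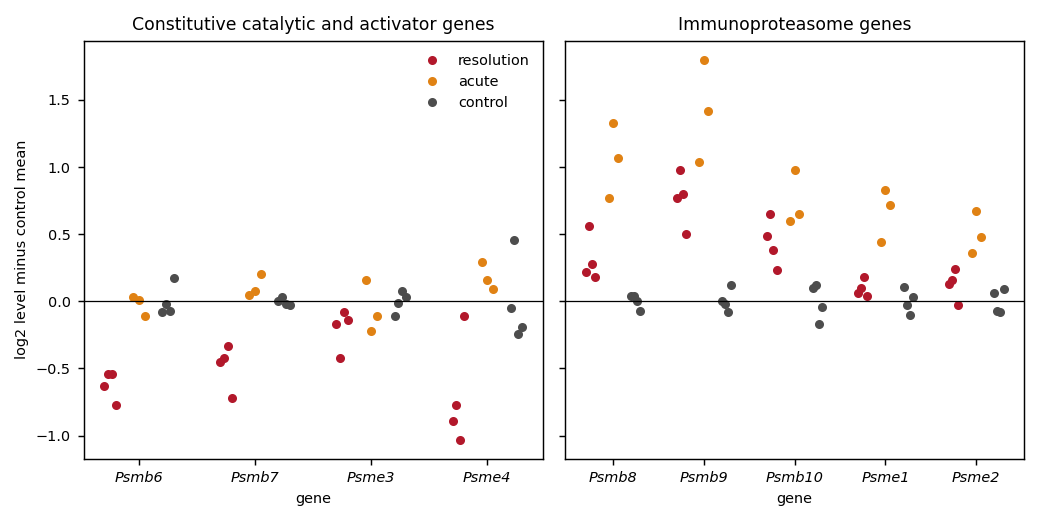
Log2 level minus the control mean on each array (points; resolution, acute and control from left to right within a gene) for constitutive members and for the immunoproteasome genes. Psmb6 and Psmb7 lie below control in resolution and within 0.11 of it on average in acute, whereas Psmb9 lies above control in both groups.

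Genes that work with the proteasome were taken from lists by function. Of 15 measured partners 4 fell and 0 rose in resolution against control, where 9.0% of all genes fell and 9.60% rose. They were Ecpas, an adaptor that holds core and cap together, by 2.14-fold (adjusted p = 0.0066), Usp14, a deubiquitinase on the base, by 1.71-fold (0.0146), the ubiquitin shuttle Rad23b by 1.56-fold (0.00351) and the thioredoxin-like Txnl1 by 1.51-fold (0.00168). Sem1, a small lid subunit with its own symbol, and the deubiquitinase Uchl5 had differences of 0.02 and 0.00. Of 8 measured genes of ubiquitin supply and the unfolding ATPase Vcp, 2 fell, Vcp itself by 1.69-fold (adjusted p = 0.00881) and its adaptor Nploc4 by 1.41-fold (0.00805). Among 8 receptors and membrane anchors of selective autophagy, the other route for ubiquitin-tagged cargo, 3 fell and 0 rose. Sqstm1 fell 2.32-fold, Gabarapl1 2.12-fold and Tax1bp1 1.84-fold, with adjusted p of 3.7e-05, 0.000361 and 0.0011. None of these lists had a gene past the test in acute against control, where the background was 0.189% higher and 0.0494% lower.

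Regulators of proteasome genes were measured as well. Nfe2l1, the Cnc factor that raises proteasome genes when proteasome activity is short and is controlled mainly after translation, measured 16.30, 16.12, 16.29 and 16.32 in the resolution arrays, 16.27, 16.15 and 16.24 in the acute arrays and 16.36, 16.29, 16.34 and 16.28 in the control arrays. It differed by -0.06 ± 0.10 (SE) in resolution against control and did not pass (adjusted p = 0.72). Of 11 tested regulators 3 fell and 0 rose in resolution against control, where 9.0% of all genes fell and 9.60% rose. Of the small Maf partners, Mafg and Mafk fell 1.75-fold and 1.62-fold (adjusted p = 0.013 and 0.0133). Maff had a difference of -0.50 that did not pass (adjusted p = 0.234). Keap1, which holds Nfe2l2 for degradation, fell 1.57-fold (adjusted p = 0.00945). Nfe2l2 itself was too dim to be tested, and the NF-Y subunits Nfya, Nfyb and Nfyc had differences of -0.38, -0.82 and -0.13 that did not pass. These 12 falls of partners and regulators passed in each of the 23 alternative settings run for resolution against control. Against acute 1 of the 15 partners fell, Txnl1, and 1 of the 11 regulators, Keap1, where 6.69% of all genes did. Ecpas, Usp14, Rad23b, Mafg and Mafk did not pass in that comparison. Both Vcp and Nploc4 fell against acute, as did Sqstm1, Gabarapl1 and Tax1bp1. Calls against acute ended in 12 of the 23 settings for Vcp, 5 for Keap1, 3 for Nploc4 and 1 for Tax1bp1.

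**Figure D5:**
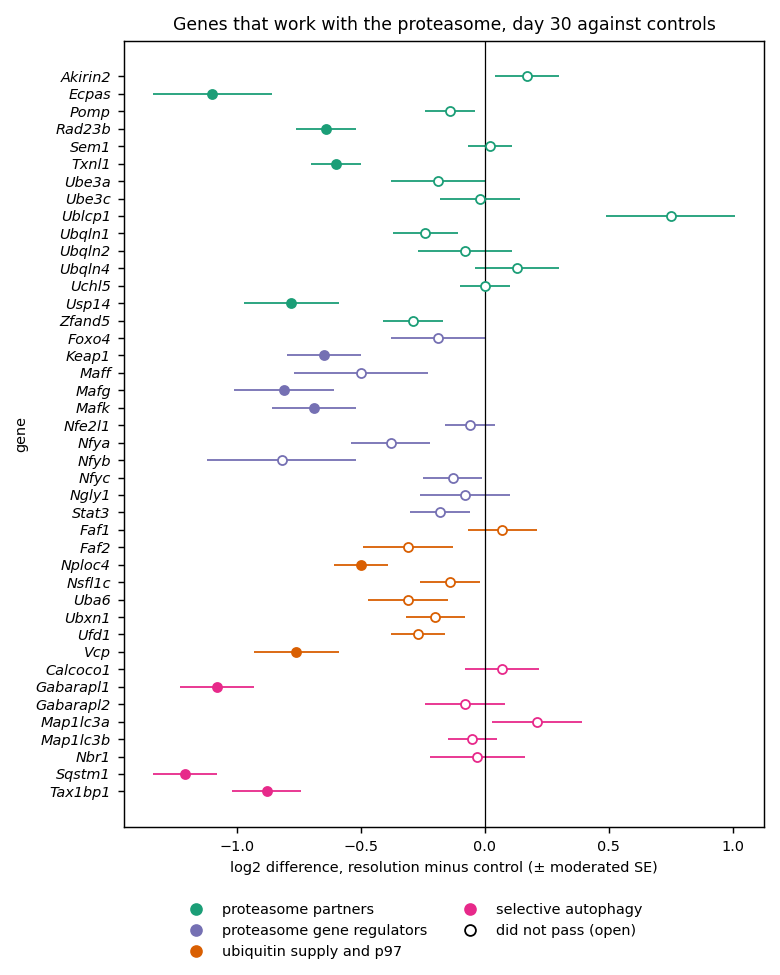
Log2 difference of resolution from control (points, with moderated SE) for 42 tested genes that act with the proteasome, coloured by list. Filled symbols mark the 12 genes past an adjusted p of 0.05, all below 0, from Nploc4 at -0.50 to Sqstm1 at -1.21.

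The genes whose levels followed the members most closely over the 11 arrays were Nploc4 and Pcna (Pearson r = 0.962 each), Rwdd4a (0.961), the hyaluronidase gene Hyal2 (0.960) and Cwc25 (0.957). The measure is the correlation with the median log2 level of the 40 tested members, and the arrays share the difference between resolution and the other groups. Pcna, the sliding clamp of DNA replication, averaged 14.85 in resolution, 15.18 in acute and 15.28 in control arrays. Its fall passed against control (adjusted p = 0.00953) but not against acute (adjusted p = 0.0628). Of 4 tested cell cycle markers, which did not include Pcna, 0 rose and 0 fell in each comparison.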

How the data were processed

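RNA of alveolar macrophages was isolated in Trizol, then amplified and biotin-labelled by a Pico kit, per the labels. The authors deposited 1 linear intensity per transcript cluster and array, made with Affymetrix Expression Console per the submitters' processing notes. The sources used here do not give its version, summary algorithm, normalization or genome build. The 28846 clusters hold 19572 with a gene symbol, and the highest-mean cluster stood for each of the 19505 symbols.

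Values were used as log2(value + 1). Clusters were kept where at least 3 arrays lay above the 40th percentile of that array, and 12144 genes remained. Group means over the 11 arrays were fitted with limma 3.58.1 (R 4.3.3; 8 residual and 4.48 prior degrees of freedom). Tests were two-sided, adjusted by Benjamini-Hochberg over all genes tested, and read at 0.05. The SE of a difference is the moderated one. Background is the 90th percentile of the array's 23 antigenomic probe sets. The number of arrays limits the precision. The procedure was tested on simulated data.

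Every member could be named. Values in every array are given for the 16 members with the smallest adjusted p, the catalytic subunits, the activators and the inhibitor; other lists give up to 4 genes past the threshold, plus Nfe2l1 and Pomp. Sem1, Uchl5, Nfe2l2, Maff, the NF-Y subunits, Psme1 and Psme2 were named outside this rule, after their values were seen. Members and lists were chosen with earlier results of these data known. The labels call the samples biological replicates. Replicate numbers did not pair the samples, since correlations of deviations between same-numbered arrays were -0.12 to 0.09. The alternatives were another pseudocount, normalization, background, filter, set of arrays, variance moderation, cluster rule and block, and each array left out.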

Additional observations from a re-analysis of the deposited data

Results flagged for a closer look

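In groups of 4 arrays the gap between an end array and its neighbour, divided by the range of the group, was compared with Dixon's 95% critical value. Of 80 groups examined 4 exceeded it, and chance alone flags about 1 in 20 groups. Psmg4 in resolution replicate 2 was the highest of its group at 11.58, against 10.67 for the next array (ratio 0.908). Psmc5 in control replicate 2 stood at 13.26 against 13.08 (ratio 0.855), and Psmc4 in control replicate 1 at 14.15 against 13.99 (ratio 0.845). Psmb2 in resolution replicate 4 was the lowest at 15.72, against 15.89 for the next array (ratio 0.838).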

How the results depend on the processing

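Of the 17 members lower in resolution than in control, 11 passed in every one of the 23 settings and 12 without each array in turn, and no call of a member in either day-30 comparison changed sign in any setting. The count ran from 14 to 17 when single arrays were left out and from 13 to 20 in the other settings. In resolution against acute 7 of the 15 calls passed in every setting. That count was 9 with the arrays of the compared groups alone and 9 with the replicate block, although the numbers do not pair the samples, and 7 to 14 without single arrays. Without the filter it was 10, with more genes tested. Counts over all genes in acute against control were 29, but 12 after subtraction of the antigenomic background, 16 with the compared groups alone, 56 with an intensity trend and 6 to 29 without single arrays. In that comparison 79.3% of calls were higher, and 90.6% after quantile normalization, 89.3% after median scaling and 58.3% after background subtraction; in resolution against acute 53.7% were higher, and 37.3% and 40.6% after those 2 scalings. In resolution against acute all genes gave 1755 calls, and 1069 to 1837 without single arrays. In resolution against control they gave 2259, and 1494 without control replicates 3 and 4 together, a setting added after the data were seen. Background subtraction moved the median of all genes by 0.11 in resolution against acute, and the members' median stayed at -0.29. Differences near 0 in acute against control changed sign. Psmb6, at -0.02, was at 0.00 after median scaling, at 0.03 without control replicates 3 and 4, and at -0.05 to 0.04 without single arrays (0.04 without control replicate 4, 0.02 without acute replicate 3). Psme3, at -0.06, was at -0.17 to 0.03 without single arrays (0.03 without acute replicate 2), and Psme4, at 0.19, was at -0.03 without control replicates 3 and 4. The cause of these shifts was not tested. The small number of acute arrays limits both comparisons that use them.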
